A study of Homo sapiens with 9 samples.

Results

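The genes described here are 9 members of the FET and ETS families, chosen by name: EWSR1, TAF15, FLI1, ERG, ETS1, ETS2, ELK1, GABPA and ETV6. All 9 have a row among the 34922 gene rows of the deposited table. They were measured by RNA-seq in TC71, an established human Ewing sarcoma cell line, after growth in NSG mice, an immunodeficient strain. Mice received 100 cells each in Matrigel by subcutaneous injection at the flank, per the series' design text. Once the tumours were 1.5 cm wide, flow cytometry was used to sort tumour cells from lungs, bone marrow and primary tumour. The bone marrow metastasis group and the lung metastasis group each have 4 libraries, and the primary tumour has 1; no treatment and no other allele is named for any group. How many mice were used, and which libraries share a mouse, is not in the labels, so p-values measure only the spread between these samples, and all libraries come from 1 cell line.

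FET proteins are RNA-binding proteins with a disordered, low-complexity N-terminal part that can recruit the transcription machinery. ETS proteins are transcription factors that share a DNA-binding domain, the ETS domain, which reads a GGAA core. In Ewing sarcoma a translocation joins the N-terminal part of a FET protein, usually EWSR1, to the ETS domain of an ETS protein, usually FLI1 and less often ERG, and TC71 carries EWSR1-FLI1. Counts per gene cannot separate reads of the fusion transcript from reads of the unbroken EWSR1 and FLI1 genes.

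The part of FLI1 that the fusion keeps is close in sequence to ERG, so a 90-base stretch that encodes part of the ETS domain is shown for FLI1 and for its counterparts in ERG and ETS1. Among stretches within single FLI1 exons it was chosen for the most bases identical to ERG, so that match is a maximum. The ETS1 counterpart is likewise the best match in its coding sequence. Sequences are GENCODE 29 coding sequence on GRCh38, 5′ to 3′ on the coding strand, and capitals mark bases that differ from FLI1.
FLI1: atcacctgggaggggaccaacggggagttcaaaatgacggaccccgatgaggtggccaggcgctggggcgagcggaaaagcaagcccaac
ERG: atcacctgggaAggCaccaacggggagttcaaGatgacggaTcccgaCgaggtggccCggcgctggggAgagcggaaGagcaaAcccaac
ETS1: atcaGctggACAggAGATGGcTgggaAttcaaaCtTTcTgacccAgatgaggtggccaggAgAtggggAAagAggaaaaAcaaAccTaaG
The FLI1 stretch lies in exon 9 at chr11:128810527-128810616 on the plus strand and that of ERG in exon 12 at chr21:38383766-38383855 on the minus strand. The ETS1 stretch runs over 2 exons, within chr11:128462538-128463559 on the minus strand. ERG matched FLI1 at 81 of 90 bases and ETS1 at 64 of 90. Even in this stretch the longest run of identical bases between FLI1 and ERG was 17, which was also the longest anywhere in the 2 transcripts compared. Over all GENCODE 29 transcripts, 0.146% of the 31-base runs of FLI1 and 0% of those of ERG also occur in another gene on the same strand. For FLI1, 3.44% match transcripts in the opposite direction, chiefly those of the antisense genes SENCR and AP001122.1, which overlap it. The corresponding same-strand shares were 6.21% for EWSR1, 3.39% for TAF15, 2.81% for ETS1 and 18.4% for GABPA, the last chiefly through the pseudogene GABPAP. Values of GABPA are therefore less certain than those of the others, and ATP5PF overlaps it on the opposite strand. For TAF15, 7.51% of runs match transcripts in the opposite direction, chiefly HEATR9, which overlaps it.

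The depth, as the rounded sum of estimated counts, was 14160000 to 17910000 in bone marrow, 11550000 to 13220000 in lung and 12350000 in the primary library. Other library measures also differed by site. Reads assigned to human made up 77.6% to 79.1% in bone marrow and 72.7% to 77.3% in lung, and mitochondrial ribosomal RNA 0.0956% to 0.218% and 0.359% to 0.491%. Whether these differences take part in the gene differences below was not tested. Reads assigned to mouse made up 7% to 8.09% in all 9. Levels are given as CPM, a gene's counts per 1000000 counts of its library, scaled by TMM, a method that corrects for differences in library composition. A count of 3 corresponds to between 0.183 and 0.254 CPM and was taken as the floor below which a level cannot be told from 0.

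EWSR1 (ENSG00000182944.17, chromosome 22, 29268009 to 29300525, plus strand, hg38) was on average the most abundant of the 9 genes and the only one whose libraries did not overlap between sites. In bone marrow it was at 196, 365, 668 and 312 CPM in replicates 1 to 4. In lung it was at 131, 158, 81.9 and 168 CPM, and in the primary library at 351 CPM. All 4 bone marrow libraries thus lay above all 4 lung libraries, by a narrow margin between bone marrow replicate 1 and lung replicate 4, and the primary library lay within the bone marrow range. Bone marrow averaged 385 ± 202 CPM and lung 135 ± 38.6 CPM (SD, n = 4 each), a 2.86-fold ratio. The log2 fold change was 1.51 ± 0.39 (SE), with an unadjusted p of 0.00388 in the edgeR quasi-likelihood test. The edgeR adjusted p over all 17073 genes tested was 0.349, so the difference did not pass the threshold of 0.05, which 0.00586% of genes passed. DESeq2, which called 3.37% of genes, called EWSR1 (DESeq2 adjusted p = 0.0240). The limma voom test, which called 0.0351%, did not call it (limma adjusted p = 0.242). The DESeq2 call was kept in 3 of 8 fits that left out 1 library: without bone marrow replicate 1 (DESeq2 adjusted p = 0.00128), lung replicate 2 (0.0402) or lung replicate 4 (0.0303). It was lost without bone marrow replicate 2 (0.0730), 3 (0.128) or 4 (0.0543), and without lung replicate 1 (0.0617) or 3 (0.0711). In bulk RNA, fewer cells that express a gene and less RNA per cell cannot be told apart.

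**Figure D1:**
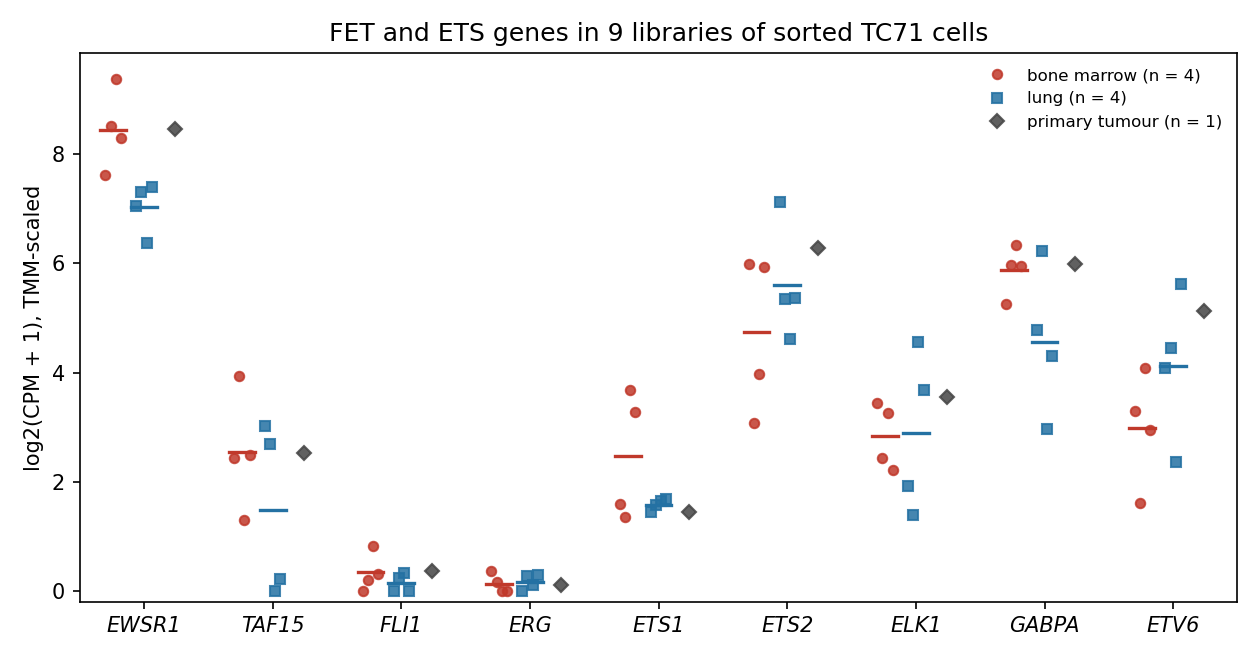
Levels of the 9 genes as log2(CPM + 1) (y axis) in bone marrow (circles), lung (squares) and primary tumour (diamonds) libraries, with a horizontal bar at the mean of each group of 4. EWSR1 stands highest in every library but lung replicate 1, where ETS2 is slightly above it, and its sites do not overlap. FLI1 and ERG lie near 0 in all 9 libraries.

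FLI1 (ENSG00000151702.16, chromosome 11, 128686535 to 128813267, plus strand), an ETS factor of blood and endothelial cells that supplies the DNA-binding part of the fusion, was hardly counted in any library. Its estimated counts were 0, 2.54, 11.2 and 3.80 in bone marrow replicates 1 to 4, 0, 2.57, 3.04 and 0 in lung replicates 1 to 4, and 3.80 in the primary library. It was thus above 3 counts in 4 of 9 libraries and at 0 in 3, and its highest level, in bone marrow replicate 3, was 0.781 CPM. Over all 9 libraries FLI1 had 27.0 counts against 34700 for EWSR1, or 0.778 FLI1 counts per 1000 EWSR1 counts. The fusion transcript of this line ends in FLI1 sequence, and the table has no row named for the fusion. Why FLI1 was counted so rarely was not tested. The FLI1 row was therefore not read as a measure of the fusion. The library labels were checked against other genes of Ewing sarcoma. STEAP1, a membrane protein at the cell surface that is high in this tumour, was at 574 to 1051 CPM over the 9 libraries. CD99, the surface protein used in its diagnosis, was at 299.5 to 779 CPM, and NR0B1, a nuclear receptor that the fusion activates, at 41.4 to 185 CPM. PRKCB, a protein kinase C gene that it also activates, was at 60.9 to 295 CPM. Other genes of this list of 13 were low in some or all libraries. LIPI, a lipase gene, reached 216 CPM but was at 0.0703 and 0.436 CPM in lung replicates 2 and 4. The transcription factor genes NKX2-2 and PAX7 were at 2.58 to 21.2 CPM and 0.427 to 27.4 CPM, and GLI1, a Hedgehog pathway factor, was at 0 in 6 of 9 libraries.

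ERG (ENSG00000157554.18, chromosome 21, 38380027 to 38661780, minus strand), the closest relative of FLI1 and its alternative partner in the fusion, had 14 counts over the 9 libraries, at most 4 in any. It was at 0 in 3 libraries. Neither FLI1 nor ERG reached the filter on low counts, so 7 of the 9 genes were tested. The ratio of FLI1 to EWSR1 counts, which does not depend on scaling between libraries, was 0 to 1.17 per 1000 in bone marrow, 0 to 3.07 per 1000 in lung and 0.831 per 1000 in the primary library. With 0.5 counts added to each gene, the log2 ratio in bone marrow minus that in lung was -0.42 (exact two-sided permutation p = 0.686, adjusted p = 0.686 over the 2 ratios tested). In the 3 libraries with FLI1 at 0, this log2 ratio is set by the added 0.5 and the EWSR1 count, so it varies with depth there. The smallest p that 4 against 4 libraries can give is 0.0286. The difference ran from -1.03 to 0.32 when single libraries were left out. Across the 9 libraries the levels of EWSR1 and FLI1 had a Pearson r of 0.64 (permutation p = 0.0572) and a Spearman rho of 0.41 (permutation p = 0.280). Because FLI1 was above 3 counts in only 4 of 9 libraries, neither the ratio nor the correlation can show how the genes relate. Leaving out bone marrow replicate 3 and lung replicate 3, the 2 libraries farthest from the median EWSR1 level, gave r = 0.73 (permutation p = 0.0798). The value rested on single libraries, since r was 0.26 without bone marrow replicate 3 and 0.87 without lung replicate 3 (permutation p = 0.516 and 0.00610). EWSR1 separates the sites, so the relation was also computed within them. With the site means removed from the 8 metastasis libraries, r was 0.58 (exact permutation within site, p = 0.257).

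TAF15 (ENSG00000270647.5, chromosome 17, 35713791 to 35864615, plus strand), the FET protein found with the general transcription factor TFIID, was far lower than EWSR1 and very uneven. It was at 4.39, 14.3, 1.46 and 4.63 CPM in bone marrow replicates 1 to 4. In lung it was at 7.11 and 5.49 CPM in replicates 1 and 2, 0 in replicate 3 and 0.165 CPM in replicate 4, below the floor, and the primary library held 4.77 CPM. The sites overlapped throughout, and the log2 fold change was 0.95 ± 1.43 (SE, edgeR adjusted p = 0.861). It was 0.13 without bone marrow replicate 2, 1.72 without lung replicate 1, 0.55 without lung replicate 3 and 0.56 without lung replicate 4. TAF15 stood at 0 to 54.1 counts per 1000 EWSR1 counts in lung and 2.18 to 39.1 in bone marrow. The difference in log2 ratio was 1.17 (exact two-sided permutation p = 0.600, adjusted p = 0.686 over the 2 ratios), and without lung replicate 3 it was -0.0045.

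ETS1 and ETS2 are transcription factors that RAS and MAP kinase signalling activates. ETS1 (ENSG00000134954.14, chromosome 11, 128458761 to 128587558, minus strand) was at 11.9 and 8.66 CPM in bone marrow replicates 3 and 4, but at 2.02 and 1.56 CPM in replicates 1 and 2. Lung held 1.71, 1.97, 2.13 and 2.21 CPM and the primary library 1.72 CPM. The higher bone marrow mean of 6.03 ± 5.07 CPM against 2.01 ± 0.218 CPM in lung (SD, n = 4 each) thus came from 2 libraries, while the other 7 kept within 1.56 to 2.21 CPM. The log2 fold change was 1.59 ± 0.76 (SE, edgeR adjusted p = 0.490). It was 1.03 without bone marrow replicate 3. ETS2 (ENSG00000157557.11, chromosome 21, 38805307 to 38824955, plus strand) was at 62.9, 7.50, 14.8 and 60.1 CPM in bone marrow as replicates 1 to 4. In lung it stood at 138, 39.9, 23.6 and 40.1 CPM, and the primary library held 76.9 CPM. Bone marrow split into a pair of high and a pair of low libraries, lung replicate 1 stood above all others, and the sites overlapped (log2 fold change -0.74 ± 0.78, edgeR adjusted p = 0.780). Without lung replicate 1 the log2 fold change was 0.09. Of the bone marrow libraries high in ETS1 (replicates 3 and 4) and in ETS2 (replicates 1 and 4), replicate 4 was shared.

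ELK1 (ENSG00000126767.17, chromosome X, 47635521 to 47650604, minus strand) is a ternary complex factor that binds DNA together with SRF and switches on early response genes when phosphorylated by ERK. The bone marrow libraries held 9.84, 4.39, 8.62 and 3.65 CPM. Lung held 2.80, 1.62, 22.8 and 11.8 CPM and the primary library 10.7 CPM. Lung held both the lowest and the highest value. The log2 fold change was -0.56 ± 0.85 (SE, edgeR adjusted p = 0.865), and without lung replicate 3 it was 0.29.

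GABPA (ENSG00000154727.10, chromosome 21, 25734570 to 25772460, plus strand) is the DNA-binding subunit of GABP, a factor of housekeeping and mitochondrial genes. It was at 37.1, 61.9, 79.5 and 61.3 CPM in bone marrow against 26.4, 74.0, 6.83 and 18.8 CPM in lung, with 62.3 CPM in the primary library. Lung replicate 2 lay within the bone marrow range and the other 3 lung libraries lay below it. The means were 60.0 ± 17.4 and 31.5 ± 29.4 CPM (SD, n = 4 each), and the log2 fold change was 0.93 ± 0.64 (SE, edgeR adjusted p = 0.628). It was 1.79 without lung replicate 2. GABPB1, the subunit that carries the activation domain of GABP, was at 34.0 to 88.7 CPM in bone marrow, 13.9 to 77.9 CPM in lung and, for the primary tumour, 36.5 CPM (log2 fold change 0.32 ± 0.52, edgeR adjusted p = 0.874).

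ETV6 (ENSG00000139083.10, chromosome 12, 11649854 to 11895402, plus strand), an ETS repressor needed in blood formation and a fusion partner in leukaemias, was at 8.85, 2.04, 16.1 and 6.68 CPM in bone marrow. Lung held 15.98, 20.8, 4.13 and 48.2 CPM in replicates 1 to 4. The primary library held 33.9 CPM, above all libraries but lung replicate 4. The site means were 8.41 ± 5.84 and 22.3 ± 18.7 CPM (SD, n = 4 each), with overlap, and the log2 fold change was -1.41 ± 0.82 (SE, edgeR adjusted p = 0.543). Without lung replicate 4 it was -0.68.

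Of the 7 tested genes, the fitted level was higher in bone marrow for 4 and lower for 3. Their median log2 fold change was 0.93, against 0 over all tested genes. None passed the edgeR adjusted threshold. At an unadjusted p below 0.05 in edgeR stood 1 of 7 (EWSR1), where 10.2% of all tested genes did. The sites did not overlap for 1 of 7, where 5.89% of tested genes had sites that did not overlap and 2.83% had bone marrow above lung as EWSR1 did.

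**Figure D2:**
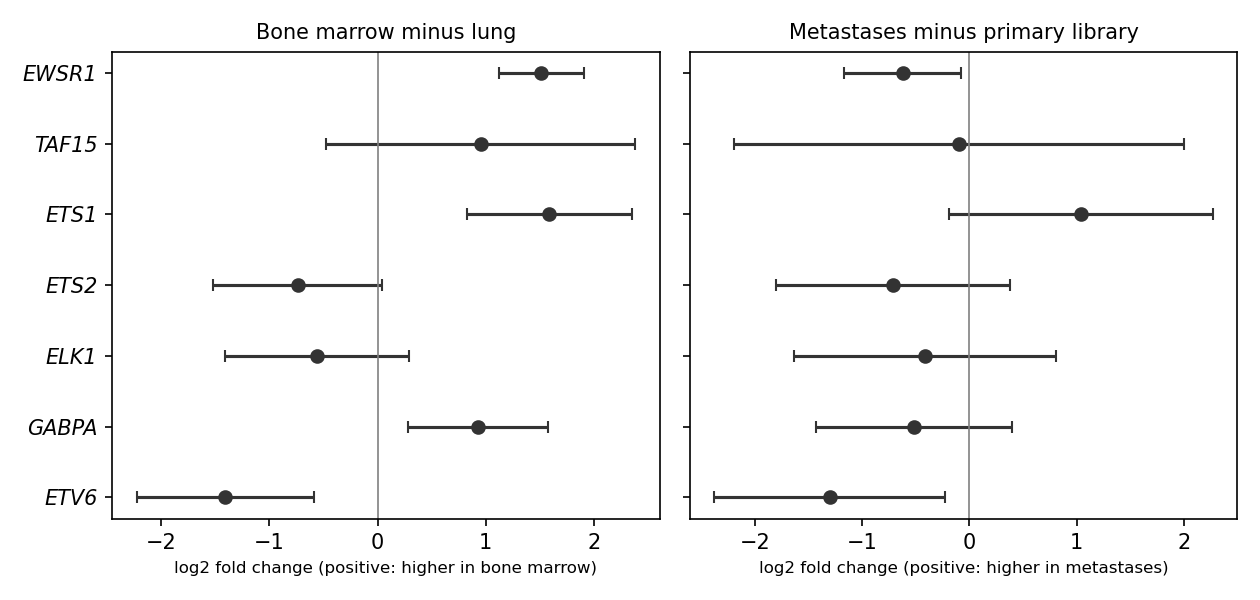
Log2 fold changes of the 7 tested genes in edgeR (points) with their standard errors (bars), for bone marrow minus lung (left) and metastases minus the primary library (right). EWSR1 has the smallest error in both comparisons, and no gene passed the adjusted threshold in either.

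Against the primary library, the mean of the metastasis sites was lower for 6 of the 7 tested genes, all but ETS1. Their median log2 fold change was -0.52, while that of all tested genes was 0.17. The test asks how far the 1 primary library stands from the metastases relative to their spread, and has no replicate check. In edgeR 0 of 7 passed, as did 0% of all genes, and 0 of 7 had an unadjusted p below 0.05, where 4.79% of all genes did. DESeq2 and limma voom called 0 of 7 as well, and they called 0.73% and 0.281% of all genes. The primary library lay within the range of the 8 metastasis libraries for all 7, where it lay outside for 17.7% of tested genes. The log2 fold change was -0.62 ± 0.55 for EWSR1, -1.31 ± 1.07 for ETV6, -0.71 ± 1.09 for ETS2, -0.52 ± 0.91 for GABPA and 1.04 ± 1.23 for ETS1 (SE, edgeR adjusted p = 1.00 for each). For ELK1 it was -0.42 ± 1.22 and for TAF15 -0.10 ± 2.10 (SE, edgeR adjusted p = 1.00 for both).

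Levels of different genes can be compared only per length, and this was done as CPM per kb of annotated exons, a level averaged over the 9 libraries. The order of the 9 genes was EWSR1 at 26.2 ± 17.4, ETS2 at 11.2 ± 8.68, GABPA at 8.76 ± 4.77, ELK1 at 2.49 ± 1.92, ETV6 at 2.46 ± 2.14, TAF15 at 0.795 ± 0.736, ETS1 at 0.526 ± 0.529, FLI1 at 0.0259 ± 0.0297 and ERG at 0.0147 ± 0.0143 CPM per kb (SD, n = 9). ETS1 stood above FLI1 in 9 of 9 libraries, and these were the only neighbours in this order whose ranges did not overlap. EWSR1 was above ETS2 in 8 of 9 libraries and ETV6 above TAF15 in 8 of 9. GABPA was above ELK1 in 7 of 9 and ETS2 above GABPA in 6 of 9. ELK1 against ETV6, TAF15 against ETS1 and FLI1 against ERG each held in 5 of 9. The order of all 9 genes was the same when the longest coding transcript replaced the exon length, although the level of EWSR1 then became 102 CPM per kb, since its exons are 10.33 kb together and its longest coding transcript is 2.65 kb.

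**Figure D3:**
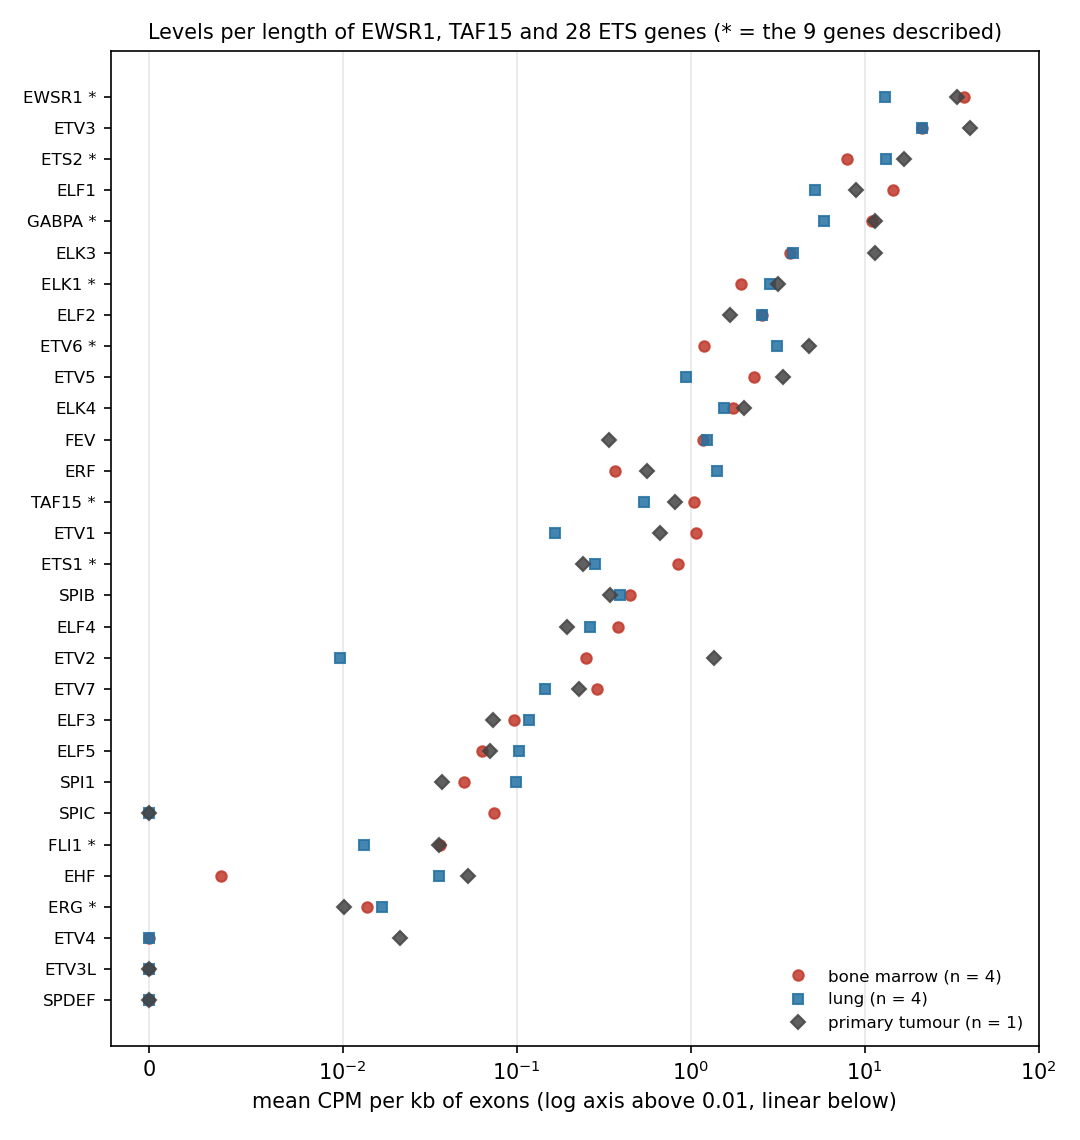
Mean level per length (x axis, CPM per kb of exons, log scale above 0.01 and linear below) of EWSR1, TAF15 and 28 ETS genes in bone marrow (circles), lung (squares) and the primary library (diamonds). Averaged over the 9 libraries, FLI1 and ERG lie among the 6 lowest genes, while EWSR1, ETV3 and ETS2 lead. The order differs by site. In lung ETV3 (21.2) and, narrowly, ETS2 (13.2) lie above EWSR1 (13.1), and in the primary library ETV3 (40.5) lies above EWSR1 (34.0).

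The other ETS genes give the setting for these levels. Of 28 ETS genes, 9 averaged at least 10 CPM, 12 averaged below 1 CPM, and 2 of these (ETV3L and SPDEF) had no counts. FLI1 and ERG were among the 12, as was SPI1, the factor of myeloid cells, at no more than 0.579 CPM. ETV3, a repressor of the ERF subfamily, led the ETS genes per length, at 23.4 ± 9.52 CPM per kb (SD, n = 9). It was at 79.7 to 229.8 CPM in the metastasis libraries and at 272 CPM in the primary library, above all 8. ELF1, a factor of lymphoid and many other cells, was at 34.9 to 88.7 CPM in bone marrow, 0.910 to 50.6 CPM in lung and, for the primary tumour, 38.5 CPM (log2 fold change between sites 1.49 ± 0.88, edgeR adjusted p = 0.550). Among the partners that replace FLI1 or ERG in rare Ewing sarcomas, ETV4 was at 0 in every metastasis library, FEV ranged from 0.0740 to 7.38 CPM and ETV1 from 0.170 to 26.5 CPM, the latter highest in bone marrow replicate 2.

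Of the 22 other FET and ETS genes listed, 15 were tested, and the fitted level was higher in bone marrow for 11 and lower for 4 (median log2 fold change 0.18). None passed in edgeR, DESeq2 or limma voom. ERF, a repressor that ERK phosphorylation sends out of the nucleus, was the only one with an unadjusted edgeR p below 0.05 between sites (0.0285, edgeR adjusted p = 0.475), with a log2 fold change of -1.94 ± 0.74 (SE). ERF averaged 1.21 ± 0.83 CPM in bone marrow, against 4.66 ± 1.95 CPM for lung (SD, n = 4 each), and the sites overlapped. Against the primary library 6 had a higher and 9 a lower fitted level in metastases, with a median of -0.14, and none passed in these tools. ETV3, ELK3 and ETV2 lay higher in the primary library than in all 8 metastasis libraries. ELK3, a ternary complex factor like ELK1, was at 53.2 CPM there and at 6.13 to 30.2 CPM in the metastases (log2 fold change -1.59 ± 0.74, edgeR adjusted p = 1.00).

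Among 20 partners and regulators of FET and ETS proteins, all were tested, and 13 had a higher and 7 a lower fitted level in bone marrow than in lung (median log2 fold change 0.23). None passed in edgeR, and the 4 with the smallest p are given. PRMT1, the arginine methyltransferase that modifies FET proteins, was at 333, 530, 397 and 528 CPM in bone marrow against 266, 260, 152 and 191 CPM in lung, with no overlap and 296 CPM in the primary library (log2 fold change 1.04 ± 0.25, edgeR adjusted p = 0.331). DHX9, an RNA helicase that binds the fusion protein, was at 57.6, 85.4, 145 and 164 CPM in bone marrow against 48.8, 53.1, 42.8 and 32.1 CPM in lung, again with no overlap and 104 CPM in the primary library (1.35 ± 0.37, edgeR adjusted p = 0.370). The AP-1 gene FOS, a target of ELK1 and SRF, averaged 437 ± 130 CPM in the marrow libraries against 182 ± 94.7 CPM for lung (SD, n = 4 each), with overlap (1.26 ± 0.38, edgeR adjusted p = 0.399). EP300, a histone acetyltransferase and coactivator, went the other way, averaging 21.5 ± 6.11 CPM in the marrow libraries against 39.6 ± 12.5 CPM for lung (SD, n = 4 each), without overlap (-0.89 ± 0.37, edgeR adjusted p = 0.486). DESeq2 called PRMT1 and DHX9 (DESeq2 adjusted p = 0.0226 and 0.0291), where it called 3.37% of all genes. Each call held in 3 of 8 fits that left out 1 library: without bone marrow replicate 1 or lung replicate 2 for both, without lung replicate 1 for PRMT1 and without bone marrow replicate 2 for DHX9. The sites did not overlap for 3 of the 20 (PRMT1, DHX9 and EP300), against 5.89% of all tested genes.

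**Figure D4:**
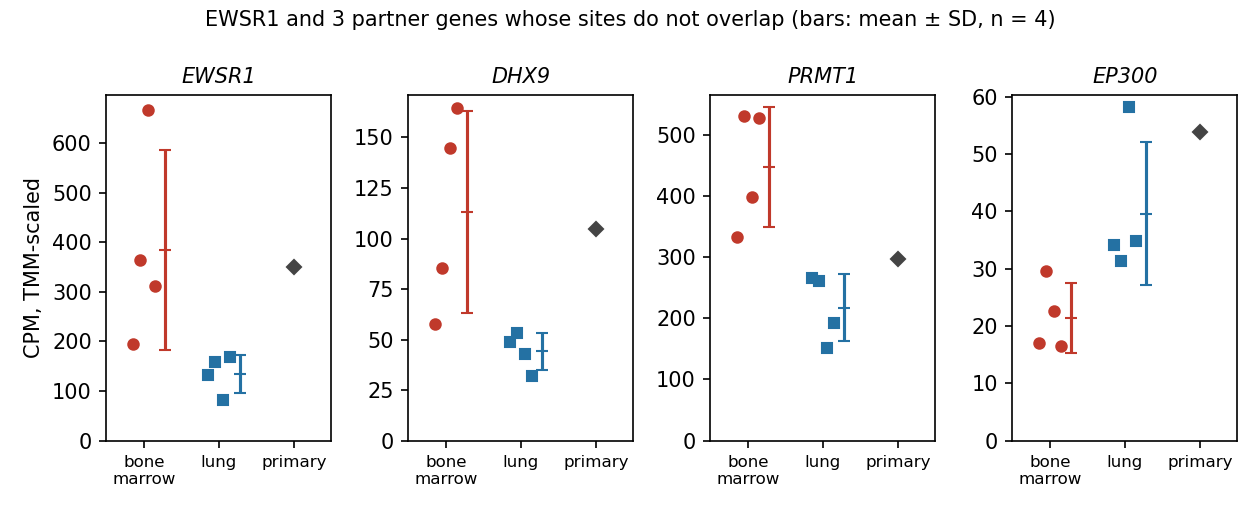
Levels in CPM (y axis, from 0) of EWSR1, DHX9, PRMT1 and EP300 in each bone marrow, lung and primary library, with the mean ± SD of each group of 4 beside the points. The libraries of the sites do not overlap for these 4 genes, and bone marrow replicate 1, the leftmost circle, lies closest to lung for EWSR1, DHX9 and PRMT1.

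In the same list the metastases had a higher fitted level than the primary library for 8 genes and a lower one for 12 (median -0.13), and none passed in edgeR, DESeq2 or limma voom. The 3 smallest p belonged to SPOP, an adaptor of a ubiquitin ligase, FOS and the chromatin remodeller SMARCA4. SPOP was at 112 CPM in the primary library, below all 8 metastasis libraries (161 to 406 CPM; log2 fold change 1.22 ± 0.47, edgeR adjusted p = 0.958). FOS was at 110 CPM in the primary library and at 116 to 556 CPM in the metastases. SMARCA4 was at 40.3 CPM there, above all 8 metastasis libraries (5.39 to 23.6 CPM).

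The genes whose levels followed EWSR1 most closely over the 9 libraries were ranked by Pearson correlation of log2(CPM + 1) among 8463 genes whose log2 CPM averaged 2 or more. They were CSE1L, a nuclear export receptor (r = 0.97), ZFR, an RNA-binding zinc finger protein (0.95), NDC1, a nuclear pore membrane protein (0.95), the glycolytic enzyme ENO1 (0.94) and ISYNA1, which makes inositol phosphate (0.94). These values are only a description, since bone marrow and lung libraries differ in site and depth together. Site means were not removed here, so a difference between sites can enter each r. CSE1L averaged 732 ± 297 CPM for bone marrow and 267 ± 102 CPM for lung (SD, n = 4 each), and the primary library held 577 CPM. Between sites its log2 fold change of 1.46 did not pass either (edgeR adjusted p = 0.373). CSE1L was picked for following EWSR1, which separates the sites, so its difference is no separate result. For FLI1 no such ranking is given, because its counts lie at the floor.

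FLI1, ERG, ETS1 and SPI1 are also genes of blood and endothelial cells, so markers of these cells were read beside them. Such cells of the host are mouse cells, while these rows are human genes. Whether mouse reads were counted in the human rows was not tested. Of 11 leukocyte markers, the summed level was 1.10 to 7.39 CPM in bone marrow, 2.77 to 35.8 CPM in lung and, for the primary tumour, 4.37 CPM, with the macrophage receptor gene CSF1R at 0 throughout. The highest sum, mainly of CD68 and PTPRC, was that of lung replicate 1, which also held the highest ETS2 level. Whether that sum bears on the ETS2 level was not tested. CD68, a macrophage marker, was at 0.956 to 20.9 CPM in lung and no more than 0.448 CPM in bone marrow, with no overlap (log2 fold change -6.10 ± 1.73, edgeR adjusted p = 0.381, DESeq2 adjusted p = 0.00346). LYZ, the lysozyme gene, differed in the other direction, at 0.587 to 1.53 CPM in bone marrow and no more than 0.558 CPM in lung (edgeR adjusted p = 0.497). CD68 and LYZ thus did not overlap between sites, in opposite directions, as 5.89% of all tested genes did not in either direction. Of the leukocyte markers 4 were tested, with 2 higher and 2 lower in bone marrow. Their part in the EWSR1 difference was not tested. Of 10 endothelial markers, the summed level was 34.1 to 52.1 CPM in bone marrow against 29.2 to 49.0 CPM in lung, most of it from CDH5 and EGFL7, with VWF at 0 in all metastasis libraries and KDR at no more than 0.141 CPM. Of 10 red cell and megakaryocyte markers, the sum was 16.6 to 100.2 CPM in bone marrow, mainly from HBA1, against 3.71 to 161 CPM in lung. Of 10 fibroblast and lung epithelial markers, the sum was 169 to 361 CPM in bone marrow against 257 to 426 CPM in lung, with the club cell gene SCGB1A1 at 0 throughout. Of the 8 tested in that list, 2 had a higher and 6 a lower fitted level in bone marrow (median log2 fold change -0.13, range -6.19 to 3.73). The collagen gene COL1A2, at the top of that range, was at 0.191 to 3.85 CPM in bone marrow. In lung it was at 0.0743 to 0.196 CPM, below the floor of 0.211 to 0.254 CPM there (log2 fold change 3.73 ± 1.03, edgeR adjusted p = 0.370, DESeq2 adjusted p = 0.0480). Bone marrow replicate 3, which held the highest EWSR1 and ETS1 levels, had a lower red cell sum than the other bone marrow libraries. Of 6 measured genes read for RNA quality, MALAT1, NEAT1 and 4 mitochondrial transcripts, all 6 had a lower fitted level in bone marrow than in lung (median log2 fold change -0.70). MT-CO1 did not overlap between sites, at 371 to 1212 CPM in bone marrow against 1236 to 1851 CPM in lung. Their part in the results above was not tested.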

How the data were processed

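The authors deposited a table of estimated counts by gene symbol for the 9 libraries, not scaled to depth. The submitters' processing notes name Trim Galore, Salmon and hg38 but no version. The authors also deposited a sample sheet with the percent of reads per species and the fraction of reads per alignment category. Per the labels' protocols, cDNA was made by template switching from low RNA input. The strand setting and annotation of the counting are not given in the sources used here. Of 34934 rows, 12 name vector genes and were kept out; their share of any library was 0.0133% or less.

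Estimated counts were rounded for the tests; printed counts and CPM are unrounded. Genes passing edgeR's filterByExpr (minimum count 10) numbered 17073. A quasi-likelihood model in edgeR 4.0.16 with TMM scaling took the 9 libraries as 3 groups, with two-sided Benjamini-Hochberg adjusted p below 0.05. SE was obtained by dividing the log2 fold change by the root of its F statistic. DESeq2 1.42.0 and limma 3.58.1 voom with quality weights were alternatives, and the closing section gives the effect of the others. This step was first tested on simulated data with known changes. Ratios were compared with exact permutation tests (scipy 1.17.1). Positions, exon lengths, coding sequences and shared 31-base runs come from GENCODE 29, on the files' build; the authors' transcript index may differ.

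The members and lists were chosen with earlier results of these data known. Named genes are the 9 members, any other FET or ETS gene, GABPB1, the 4 partners with the smallest p in each comparison, the 5 genes closest to EWSR1 and marker genes; some of these are not reported here. None of 36 pairs of libraries was alike within counting error (lowest chi-square over its degrees of freedom 78.7).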

Additional observations from a re-analysis of the deposited data

Results flagged for a closer look

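Among 18 groups of 4 libraries (9 genes at 2 sites), 1 value stood apart by Dixon's test, and chance flags about 1 group in 20. ETS2 was at 138 CPM in lung replicate 1, while the other 3 lung libraries were at 23.6 to 40.1 CPM. The gap to the next library was 0.857 of the range of the group, above the 95% critical value for 4 values.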

How the results depend on the processing

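EWSR1 kept its direction between sites in all 25 alternatives (log2 fold change 1.11 to 1.75) and passed in 4 of them, all DESeq2 fits. Most alternatives left out libraries, which could hardly turn the direction of a gene whose sites do not overlap, so these do not test it. DESeq2 with 1 library left out and the correlation within sites were chosen after seeing the data. GABPA, ETS1, ETV6 and TAF15 also kept theirs between sites, TAF15 at 2.08 with limma voom and 2.61 with the replicate block. ELK1 turned with limma voom with quality weights (0.14), with the replicate block (0.0255), without both bone marrow replicate 1 and lung replicate 3 (0.0250) and over single libraries left out (-0.91 to 0.29). ETS2 ran from -1.12 to 0.0922 over single libraries left out. Against the primary library TAF15 ran from -0.53 to 0.0650, and was 0.17 without that pair. The FLI1 to EWSR1 log2 ratio ran from -1.03 to 0.32 and was 0.85 without that pair. The TAF15 to EWSR1 ratio ran from -0.0045 to 2.25, was -0.27 without that pair, and its linear difference was -2.82 per 1000. The EWSR1 and FLI1 correlation ran from 0.26 to 0.87. The cause was not tested.

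Between sites the genes called were 1 in edgeR (XPO5, named after its value was seen), 3 with at least 5 CPM in at least 4 libraries, 468 in DESeq2, 6 in limma voom, 0 with the replicate block, 0 without that pair and 0 to 0 over single libraries left out. Against the primary library they were 0, 97 in DESeq2 and 48 in limma voom. Same-numbered bone marrow and lung libraries showed no shared deviation from their site means (correlations -0.0096, 0.0368, -0.0558 and -0.0364). These correlations cannot tell whether such libraries share a mouse. Under the block EWSR1 was at 1.39 (edgeR adjusted p = 0.686). No paired analysis was possible against the primary library because its label carries no replicate number. Depth limits FLI1 and ERG most, since 3 counts correspond to up to 0.254 CPM.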
